A study of Homo sapiens with 16 samples.

Results

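The hypoxia response of transformed BJ fibroblasts was compared with that of immortalized BJ fibroblasts, gene by gene, as the change from atmospheric to 3% oxygen in transformed cells minus the same change in immortalized cells. The comparison rests on 8 of the 16 libraries of the series, 2 from each of 4 groups, and was made for 12715 of 19356 protein-coding genes, those with a mean of at least 1 TPM (a length-corrected share of all transcripts in a library) in at least 1 of the 4 groups. BJ cells are human foreskin fibroblasts, and in the model genetic elements were added to them one after the other. The immortalized stage is BJ hTERT+, in which the catalytic subunit of human telomerase keeps the chromosome ends. The transformed stage is BJ hTERT+ SV40+, which carries the same telomerase and also the Large-T antigen of simian virus 40. All 4 groups therefore carry hTERT, and they differ in Large-T and in the oxygen level. Each line was kept for 6 passages at atmospheric or at 3% oxygen, on duplicate plates grown in parallel, called a and b in the labels. Each stage is 1 cell line, so the effect of Large-T and the history of the line cannot be told apart, and p-values measure only the spread between parallel plates.

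When oxygen is short, prolyl hydroxylases no longer mark the alpha subunits of hypoxia-inducible factors (HIF) for degradation, and HIF switches on genes of glycolysis, angiogenesis and mitochondrial turnover. Large-T antigen binds the tumor suppressors p53 and RB and takes both out of action. Fibroblasts can also secrete interleukins and chemokines under control of NF-kB, change between a quiet and a contractile, matrix-producing state, and adjust amino acid and lipid synthesis through ATF4 and the SREBP factors.

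The telomerase transgene was checked first. TERT measured 115 and 193 TPM in the immortalized libraries a and b at atmospheric oxygen and 143 and 128 TPM at 3% oxygen, against 35.4 and 31.6 and then 75.1 and 78.0 TPM in transformed cells. Its difference between the responses was 1.32 (standard error 0.52, adjusted p = 0.0736), not past the threshold. Of 10 fibroblast markers, 9 or 10 exceeded 1 TPM in each of the 8 libraries, and their summed level was 13977 to 14348 TPM in immortalized cells at atmospheric and 11920 to 12143 TPM at 3% oxygen, against 5542 to 5709 and 3832 to 4629 TPM in transformed cells. Markers of epithelial, endothelial, leukocyte and melanocyte cells summed to at most 4.39 TPM per list and library.

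The 2 transformed plates at 3% oxygen differed from each other in a way that touches several results. Of the 12715 genes, 381 were more than 2-fold higher in plate b and 182 more than 2-fold higher in plate a. Among interferon-stimulated genes, which answer to type I interferon, 35 of 37 tested members were more than 2-fold higher in plate b, and the list summed to 1353 TPM in plate a and 6322 TPM in plate b. Of 19 chemokines and cytokines, 14 were more than 2-fold higher in plate b. The median differences of these lists are given also with each of these plates left out. So are the differences of most called chemokines and cytokines, though not those of CXCL1, CXCL5, CXCL6 and CXCL12. The lysosomal, mitotic and HIF target lists had a median distance of at most 0.22 on the log2 scale between the same plates.

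A gene was called when the difference of the responses exceeded 1 on the log2 scale in either direction at an adjusted p under 0.01 (limma on log2(TPM + 0.5), Benjamini-Hochberg adjustment over all genes tested). Called were 1516 genes (11.9% of those tested), of which 775 (6.1%) had a higher and 741 (5.83%) a lower response in transformed cells. With median-ratio rescaling of the libraries, which moved the median difference of all genes from -0.08 to 0.03, the calls were 938 higher and 505 lower, so 65.0% of called genes were higher in place of 51.1%. The responses themselves were called for 581 genes in immortalized cells (4.57% of those tested, with 255 or 2.01% up and 326 or 2.56% down) and for 914 in transformed cells (7.19%, with 598 or 4.7% up and 316 or 2.49% down).

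Called genes followed a few shapes. Among the 775 genes with a higher difference, 312 rose in transformed cells with no call in immortalized cells, 194 fell in immortalized cells with no call in transformed cells, and 46 did both. Among the 741 genes with a lower difference, 164 fell in transformed cells alone, 114 rose in immortalized cells alone and 16 did both. In 222 higher and 447 lower genes neither response was called by itself. In both stages 90 genes were called, beside 4.57% of all genes called in immortalized and 7.19% in transformed cells. Of the 90, 28 went in the same direction and 62 in opposite directions. All 62 were also called for the difference, which opposite responses each beyond 1 make nearly certain in the same fit. Over all genes tested, the 2 responses, which share no library, had a Pearson correlation of -0.080 and a Spearman correlation of -0.048, across genes and not replicates.

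**Figure D1:**
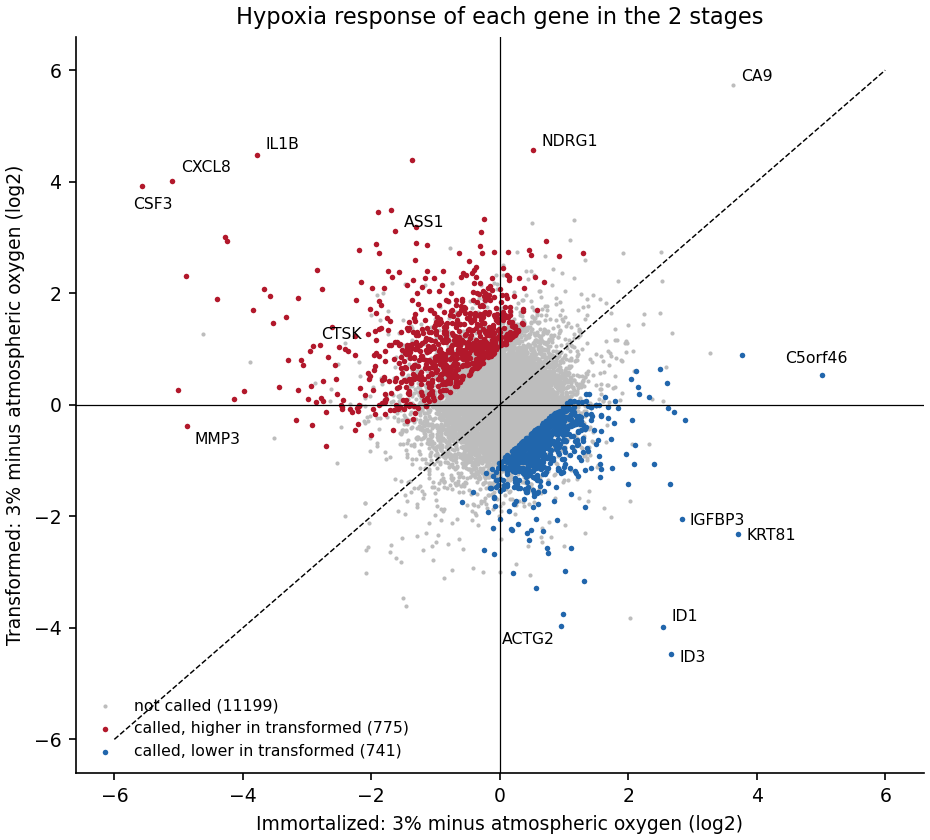
Response to 3% oxygen in immortalized cells (horizontal axis, log2) against that in transformed cells (vertical axis, log2) for 12715 genes, 1 point each, with the 775 genes called higher in red, the 741 called lower in blue and the line of equal responses dashed. CXCL8, CSF3 and IL1B lie far to the upper left, ID1 and ID3 far to the lower right, and CA9 at the upper right, near the line.

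Read the other way, the difference of the responses is the change in the distance between the stages. The distance was called at each oxygen level by the same thresholds. Of the 775 genes called higher, transformed cells were called lower than immortalized cells in 434 and higher in 21 at atmospheric oxygen. At 3% oxygen they were called lower in 68 and higher in 239. Of the 741 genes called lower, transformed cells were called higher in 385 and lower in 13 at atmospheric oxygen. At 3% oxygen they were called higher in 15 and lower in 127. The median distance of the genes called higher went from -1.24 at atmospheric to 0.56 at 3% oxygen, and that of the genes called lower from 1.06 to -0.32. These distances and the difference use the same libraries, so they describe the called genes and do not test them. Over all genes tested, 23.8% were called between the stages at atmospheric oxygen, with 12.9% higher and 10.9% lower in transformed cells. At 3% oxygen 16% were called, with 8.79% higher and 7.24% lower.

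Secreted inflammatory mediators stood at the top of the differences. For each gene, the levels in plates a and b are given first at atmospheric oxygen and then at 3% oxygen. Of 19 chemokines and cytokines tested, 13 were called higher and 1 lower, with a median difference of 4.61 beside -0.08 for all genes. The median difference was 3.52 without transformed plate b and 5.70 without transformed plate a at 3% oxygen. The median response of the list was -2.53 in immortalized and 1.90 in transformed cells. In immortalized cells 10 members fell and 0 rose at 3% oxygen, and in transformed cells 5 rose and 1 fell. With each of the 8 libraries left out in turn, 7 to 14 members were called higher, with 7 calls without immortalized plate a at atmospheric, immortalized plate b at 3% or transformed plate b at atmospheric oxygen and 8 without immortalized plate a at 3% or transformed plate a at atmospheric oxygen.

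CXCL8, the neutrophil-attracting chemokine interleukin 8, measured 3653 and 2324 TPM in immortalized plates a and b at atmospheric oxygen and 98.0 and 73.3 TPM at 3% oxygen. In transformed cells it measured 31.6 and 31.1 TPM at atmospheric and 191 and 1385 TPM at 3% oxygen. Oxygen levels did not overlap within either stage, and the order was opposite. The response was -5.10 in immortalized and 4.02 in transformed cells, and the difference 9.11 (standard error 1.06, adjusted p = 0.000155) became 7.69 without transformed plate b and 10.54 without plate a at 3% oxygen (adjusted p = 0.000172 and 2.75e-05, limma).

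IL1B, the inflammatory cytokine interleukin 1 beta, was at 589 and 336 TPM in immortalized cells at atmospheric oxygen and at 36.6 and 28.1 TPM at 3% oxygen. Its transformed libraries held 1.89 and 3.22 TPM and then 28.1 and 155 TPM, a difference of the responses of 8.26 (standard error 1.05, adjusted p = 0.000273). IL6, a cytokine of the acute phase response, measured 2146 and 1339 TPM and then 149 and 118 TPM in immortalized cells and 37.0 and 46.6 TPM and then 58.0 and 536 TPM in transformed cells. Both genes were lower in every immortalized library at 3% than at atmospheric oxygen and higher in every transformed one, but for IL6 the transformed response of 2.08 was not called. The IL6 difference of 5.75 was 4.15 without transformed plate b and 7.35 without plate a at 3% oxygen, called in both, but it was not called with only the 8 libraries in the fit. The IL1B difference was 7.03 and 9.48 in the same 2 settings.

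The growth factors of myeloid cells behaved alike in direction. CSF3, which drives the making of granulocytes, measured 60.3 and 50.4 TPM and then 0.776 and 0.575 TPM in immortalized cells. The same gene measured 0.193 and 0.220 TPM and then 2.13 and 43.1 TPM in transformed cells, where plate b stood far above plate a at 3% oxygen. Its difference of 9.49 (standard error 1.77, adjusted p = 0.00241) was the highest of all called genes, and its transformed response of 3.92 was not called. The difference was 7.47 without transformed plate b and 11.52 without plate a at 3% oxygen, and 8.35 and 11.17 with 1 and 0.1 TPM added in place of 0.5. Its call was lost without immortalized plate a at atmospheric, immortalized plate b at 3%, transformed plate a at atmospheric or transformed plate b at atmospheric oxygen. CSF2, the granulocyte and macrophage factor, had a difference of 7.28 (standard error 1.14, adjusted p = 0.000900) and 0.986 and 16.1 TPM in transformed plates a and b at 3% oxygen against 0 and 0.272 TPM at atmospheric oxygen. The CSF2 difference was 5.54 without transformed plate b and 9.02 without plate a at 3% oxygen.

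The CXC chemokines that attract neutrophils are neighbours in the genome. CXCL8, CXCL6, CXCL1, CXCL5, CXCL3 and CXCL2 lie within 359 kb on chromosome 4 (GRCh37, from 74606236 to 74964913), and all 6 were called higher. CXCL1 measured 739 and 527 TPM and then 34.1 and 24.5 TPM in immortalized and 18.6 and 16.5 TPM and then 26.9 and 164 TPM in transformed cells. CXCL2 measured 41.6 and 33.3 TPM and then 1.40 and 1.6 TPM in immortalized and 2.01 and 1.65 TPM and then 8.96 and 32.7 TPM in transformed cells. The differences were 7.17 for CXCL2, 6.30 for CXCL1, 5.53 for CXCL3, 5.05 for CXCL6 and 2.64 for CXCL5. The calls of CXCL1 and CXCL6 were lost with 7 of the 8 libraries left out, all but transformed plate a at 3% oxygen, and that of CXCL5 without immortalized plate a at atmospheric, immortalized plate a at 3%, immortalized plate b at 3% or transformed plate b at atmospheric oxygen. CXCL2 and CXCL3 had differences of 6.27 and 4.43 without transformed plate b and of 8.08 and 6.63 without plate a at 3% oxygen, and both were called with each of the 8 libraries left out.

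IL1A (4.61), CCL20 (4.08) and IL11 (2.13) were the other members called higher, and CCL20 was listed at 0 in both immortalized libraries at 3% and both transformed libraries at atmospheric oxygen. Without transformed plate b at 3% oxygen IL1A had a difference of 3.52, CCL20 of 2.88 and IL11 of 1.49, and without plate a of 5.70, 5.29 and 2.77. The call of IL11 was lost with 6 of the 8 libraries left out, all but transformed plate a at 3% and transformed plate b at 3% oxygen, and that of CCL20 without immortalized plate a at atmospheric, immortalized plate a at 3%, immortalized plate b at 3%, transformed plate a at atmospheric or transformed plate b at atmospheric oxygen. CCL2, which attracts monocytes, had a difference of 2.73 (standard error 0.70, adjusted p = 0.0126), short of the threshold. CXCL12, a chemokine that holds blood-forming cells in their niche, was the exception of the list. It measured 214 and 257 TPM and then 449.7 and 411 TPM in immortalized cells and 261 and 261 TPM and then 117 and 75.6 TPM in transformed cells, a difference of -2.34 (standard error 0.32, adjusted p = 0.000437).

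NF-kB subunits and genes that NF-kB induces, some of which restrain or relay its signal, mostly had the same direction. Of 17 tested, 8 were called higher and 0 lower, with a median difference of 1.74. In immortalized cells 7 members fell, and in transformed cells 3 rose. SOD2, the mitochondrial superoxide dismutase, measured 2208 and 1780 TPM and then 179 and 153 TPM in immortalized cells and 69.9 and 78.4 TPM and then 157 and 533 TPM in transformed cells, a difference of 5.54 (standard error 0.64, adjusted p = 0.000157). NFKBIA, the inhibitor that holds NF-kB in the cytoplasm, measured 210.4 and 183 TPM and then 71.1 and 61.1 TPM in immortalized cells and 51.5 and 47.3 TPM and then 69.7 and 157 TPM in transformed cells. Oxygen levels of SOD2 and NFKBIA did not overlap in either stage, and transformed plate b at 3% oxygen was above plate a in both. The SOD2 difference was 4.65 without that plate and 6.42 without plate a, and the NFKBIA difference 2.06 and 3.23. Also called higher were ICAM1, the adhesion molecule for leukocytes (3.44), the kinase IRAK2 (3.32), BIRC3 (2.77), NFKBIE (1.74), NFKB2 (1.73) and TNFAIP2 (1.51). The call of NFKBIE was lost with each of the 8 libraries left out, and that of TNFAIP2 without immortalized plate a at atmospheric, immortalized plate b at 3% or transformed plate b at atmospheric oxygen. Without transformed plate b at 3% oxygen 7 members of the list were called higher, and without plate a 8.

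**Figure D2:**
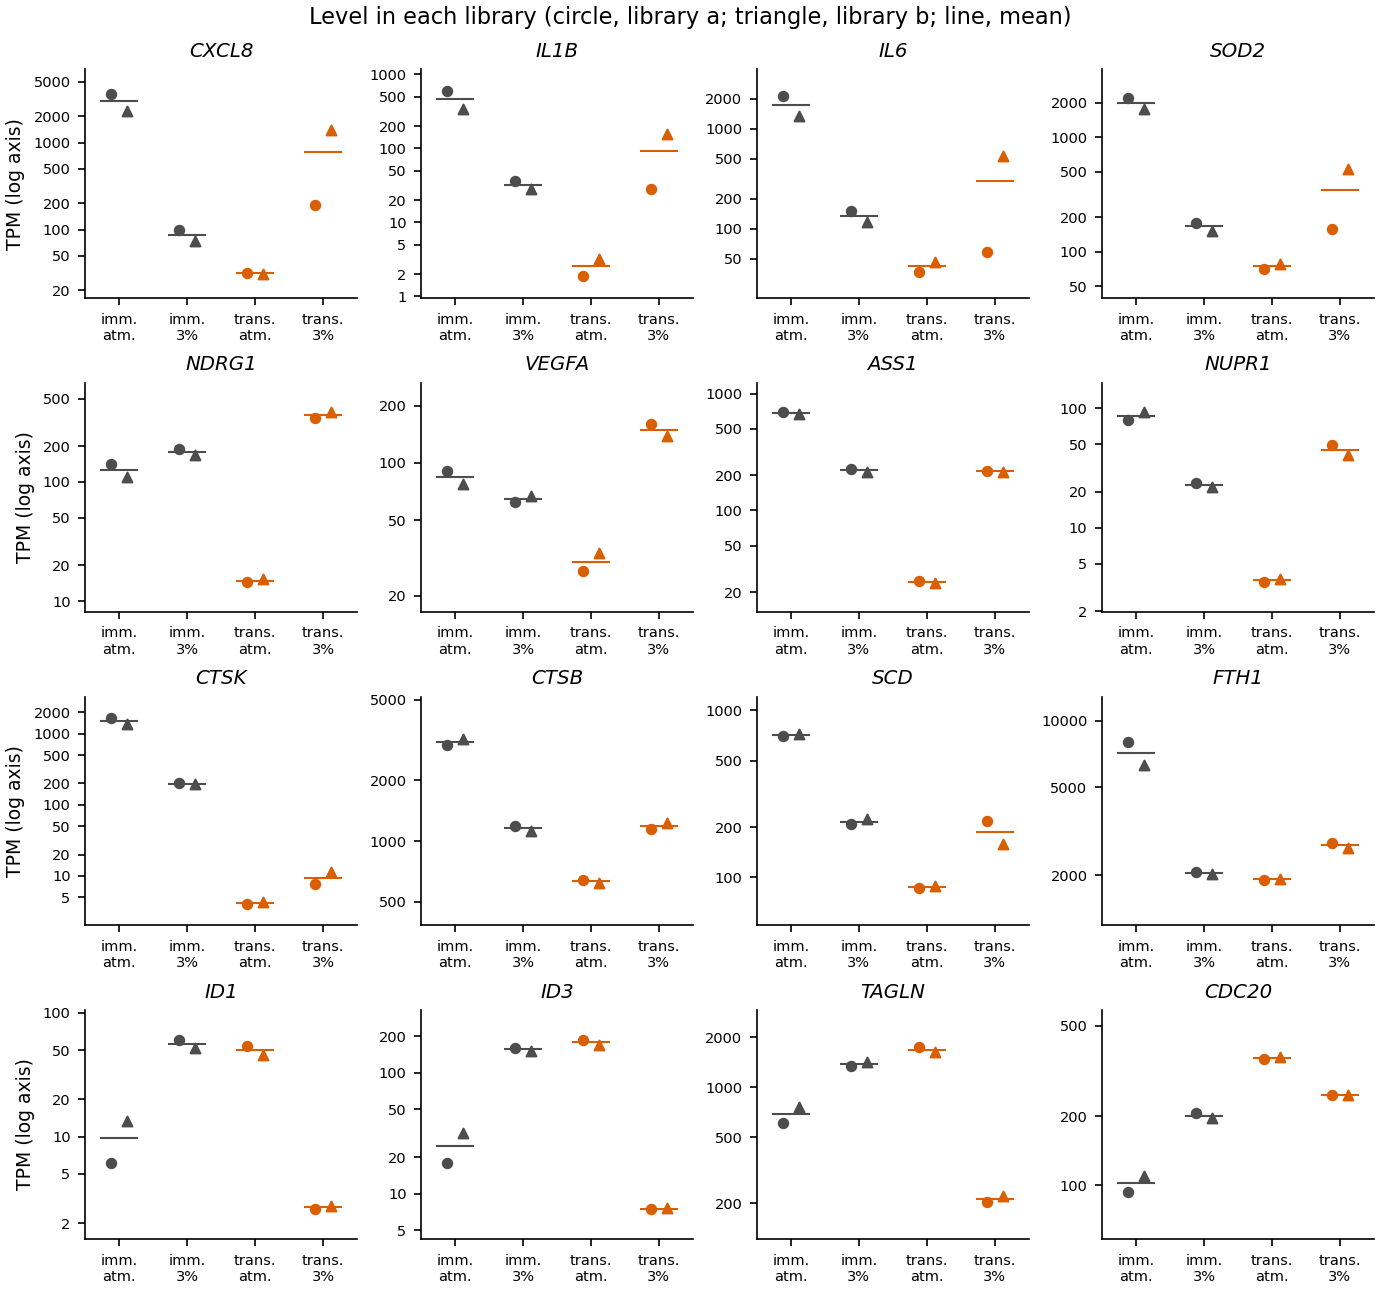
Level of 16 genes in each library (TPM, log axis) in immortalized (imm., grey) and transformed (trans., orange) cells at atmospheric (atm.) and 3% oxygen, with a circle for plate a, a triangle for plate b and a line for their mean. In the top row the levels fall from left to right in grey and rise in orange, with transformed plate b at 3% oxygen above plate a, and in the bottom row ID1, ID3 and TAGLN do the opposite.

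The promoters of these genes are shown because the chemokines of the cluster share a stretch of sequence there. The letters GGANTTTCC, a form of the NF-kB site, were searched on both strands in the 250 bases before the start of the first RefSeq promoter listed for each gene (build GRCh38.p14, a window found for 10278 of the 12715 genes tested). They occurred in 160 windows (1.56%), in 22 of 617 windows of genes called higher (3.57%) and in 6 of 619 of genes called lower (0.969%). Of 15 chemokine and cytokine windows 7 held them, and of 15 windows of the NF-kB feedback list 6 did. Printed are the last 120 bases before the start, 5′ to 3′ on the strand of the gene, with the match in capitals.
CXCL8 (chr4:73740449-73740568, plus strand): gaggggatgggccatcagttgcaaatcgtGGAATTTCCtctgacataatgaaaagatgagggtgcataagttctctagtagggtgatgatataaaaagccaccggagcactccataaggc
CXCL6 (chr4:73836558-73836677, plus strand): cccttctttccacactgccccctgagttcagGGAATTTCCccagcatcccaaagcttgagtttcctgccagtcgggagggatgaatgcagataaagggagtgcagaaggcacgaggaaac
CXCL1 (chr4:73869273-73869392, plus strand): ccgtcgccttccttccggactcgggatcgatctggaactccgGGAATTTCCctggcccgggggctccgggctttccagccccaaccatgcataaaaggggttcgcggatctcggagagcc
CXCL3 (chr4:74038690-74038809, minus strand): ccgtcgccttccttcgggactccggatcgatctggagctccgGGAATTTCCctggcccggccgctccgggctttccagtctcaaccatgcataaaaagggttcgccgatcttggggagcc
CXCL2 (chr4:74099196-74099315, minus strand): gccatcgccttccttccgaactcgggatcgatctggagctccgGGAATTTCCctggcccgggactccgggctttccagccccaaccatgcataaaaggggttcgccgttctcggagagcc
IL6 (chr7:22727080-22727199, plus strand): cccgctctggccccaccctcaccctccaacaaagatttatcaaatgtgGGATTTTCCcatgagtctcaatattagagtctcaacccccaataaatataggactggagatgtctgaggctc
NFKBIA (chr14:35404750-35404869, minus strand): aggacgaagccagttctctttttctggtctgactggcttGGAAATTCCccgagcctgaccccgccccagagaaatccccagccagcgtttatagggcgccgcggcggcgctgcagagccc
In CXCL1, CXCL2 and CXCL3 the match began 78, 77 and 78 bases before the start, and in CXCL8, CXCL6, IL6 and NFKBIA 91, 89, 72 and 81 bases before it. The match in NFKBIA was on the opposite strand. A match of letters is a description and not a site of binding.

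Interferon-stimulated genes gave no call for the difference over 37 members with limma at the threshold used here, with 8 at an unadjusted p under 0.05, 0 called with only the 8 libraries fitted and 2 called lower with array weights. The count depended on the transformed plates at 3% oxygen. Without transformed plate b at 3% oxygen 29 members were called lower (median -2.36), and without plate a 2 were called higher and 0 lower (median 0.07). IFIT1, which binds foreign RNA, measured 143 and 119 TPM and then 113 and 104 TPM in immortalized cells and 701 and 708 TPM and then 27.9 and 273 TPM in transformed cells. MX1, a GTPase that blocks viruses, measured 26.9 and 23.7 TPM and then 11.3 and 12.7 TPM in immortalized cells and 786 and 793 TPM and then 32.5 and 401 TPM in transformed cells. In both genes each transformed library at 3% oxygen was below both at atmospheric oxygen, and plate b was far above plate a. Of 12 antigen presentation genes, 0 were called by limma in either direction, with 1 at an unadjusted p under 0.05, and all 12 were higher in transformed plate b than in plate a at 3% oxygen.

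**Figure D3:**
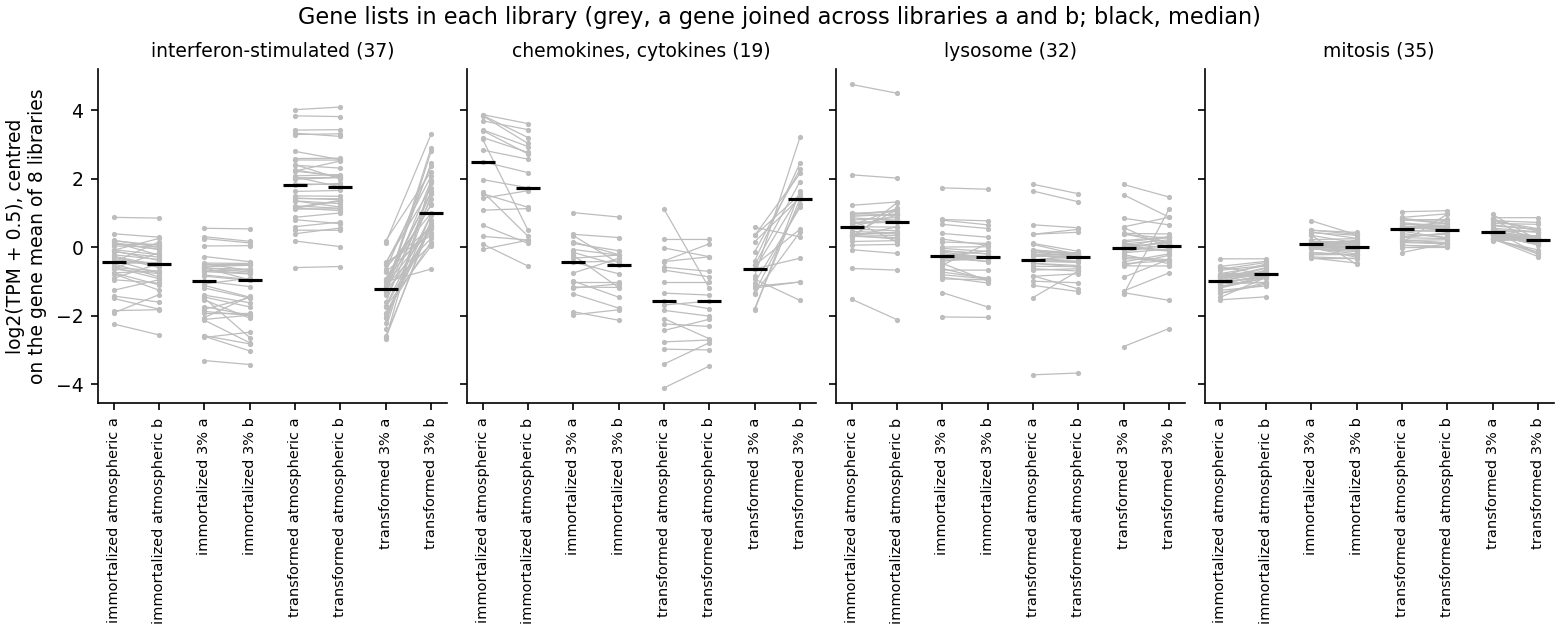
Genes of 4 lists in each of the 8 libraries, as log2(TPM + 0.5) centred on the mean of the gene over the 8 libraries (vertical axis), with 1 grey line per gene from plate a to plate b of a group and the median in black. The lines of the interferon-stimulated (37 genes) and chemokine and cytokine (19 genes) lists climb steeply between the transformed plates at 3% oxygen, and those of the lysosomal (32) and mitotic (35) lists do not.

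A part of the HIF target genes had a higher response in transformed cells. Of 29 tested, 4 rose in immortalized and 18 in transformed cells, with median responses of 0.37 and 1.21. The difference was called higher for 6 and lower for 0, and its median was 0.66. NDRG1, a stress-induced gene, measured 140.4 and 111 TPM and then 189 and 169 TPM in immortalized cells and 14.4 and 15.3 TPM and then 344 and 384 TPM in transformed cells. The transformed libraries were the lowest at atmospheric and the highest at 3% oxygen, and the difference was 4.05 (standard error 0.42, adjusted p = 8.87e-05). VEGFA, the growth factor of blood vessels, measured 91.0 and 77.3 TPM and then 62.5 and 66.8 TPM in immortalized cells, where its response of -0.37 was not called, and 27.0 and 33.5 TPM and then 161 and 138 TPM in transformed cells, where it rose by 2.29.

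DDIT4, which restrains mTOR, had 33.7 and 40.3 TPM and then 17.4 and 15.5 TPM in immortalized cells and 15.7 and 12.4 TPM and then 123 and 88.8 TPM in transformed cells, a difference of 4.00 (standard error 0.65, adjusted p = 0.00115). Also called higher were MXI1, an antagonist of MYC (3.38), the secreted hormone STC2 (3.08) and BNIP3L, a receptor for mitochondrial autophagy (1.73). STC1, a hormone of the same family that stood among the genes named by the study, measured 332 and 203 TPM and then 87.0 and 72.6 TPM in immortalized and 6.08 and 5.86 TPM and then 59.2 and 88.7 TPM in transformed cells (difference 5.20, called). Other HIF targets rose in both stages with no call for the difference. CA9, the carbonic anhydrase of hypoxic tumors, measured 4.55 and 7.73 TPM and then 82.8 and 75.9 TPM in immortalized cells and 0.231 and 0.487 TPM and then 44 and 45.5 TPM in transformed cells, and its difference was 2.11 (standard error 0.68, adjusted p = 0.0347). BNIP3 rose by 1.55 and 1.90 and PDK1, which shuts pyruvate out of mitochondria, by 1.22 and 1.21, with differences of 0.35 (standard error 0.26, adjusted p = 0.334) and -0.01 (standard error 0.26, adjusted p = 0.976).

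Transcripts of the oxygen sensing machinery had a median difference of 0.06. Of 8 members tested, 1 was called (12.5%, close to the 11.9% of all genes), EPAS1, which encodes HIF-2 alpha. It measured 303 and 265 TPM and then 142 and 153 TPM in immortalized cells and 68.4 and 70.7 TPM and then 108 and 92.8 TPM in transformed cells, a difference of 1.46 (standard error 0.18, adjusted p = 0.000216), with neither response called by itself. HIF1A transcripts measured 297 and 273 TPM and then 281 and 269 TPM in immortalized and 344 and 339.8 TPM and then 436 and 348 TPM in transformed cells (difference 0.24, standard error 0.15, adjusted p = 0.255). Protein was not measured in these libraries. By staining, the study reported more HIF1A protein in transformed cells at atmospheric oxygen, which did not rise further in hypoxia.

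Glycolytic enzymes did not move as one group. Of 21 tested, 4 rose in immortalized and 3 in transformed cells, with median responses of 0.49 and 0.37 and a median difference of -0.33. The difference was called for 14.3% of the list, near the 11.9% of all genes tested. It was called higher for ALDOC (2.21) and ENO2 (1.12), an aldolase and an enolase best known from brain. It was called lower for GPI (-1.08), which isomerizes glucose 6-phosphate. The call of ALDOC was lost with 7 of the 8 libraries left out, all but transformed plate b at 3% oxygen, and that of GPI without transformed plate b at 3% oxygen and with median-ratio rescaling or quantile normalization. LDHA, which turns pyruvate into lactate, measured 2079 and 1924 TPM and then 4686 and 4452 TPM in immortalized cells and 1869 and 1871 TPM and then 3450 and 3088 TPM in transformed cells (difference -0.39, standard error 0.21, adjusted p = 0.182). Of 76 nuclear genes of the respiratory chain, 61 had a negative difference (median -0.37), but only ATP5F1B (-1.05) and NDUFB3 (-1.04) were called, and neither with median-ratio rescaling or quantile normalization.

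Targets of ATF4, the factor that answers a shortage of amino acids, had a higher response in transformed cells for more than 1 in 2 members tested. Of 22 tested, 12 were called higher and 0 lower, and the median difference was 1.74. In transformed cells 13 members rose, with a median of 1.36, and in immortalized cells 0 rose and 2 fell, with a median of -0.17. Leaving out single libraries gave 8 to 11 higher calls in place of 12.

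ATF4 transcripts themselves measured 571 and 545 TPM and then 328 and 316 TPM in immortalized cells and 320.3 and 321 TPM and then 671 and 564 TPM in transformed cells (difference 1.73, standard error 0.18, adjusted p = 0.000101). TRIB3, a pseudokinase that dampens the same pathway, measured 39.1 and 45.0 TPM and then 16.7 and 15.5 TPM in immortalized cells and 17.2 and 16.6 TPM and then 79.8 and 83.7 TPM in transformed cells, a difference of 3.60 (standard error 0.23, adjusted p = 6.79e-06). It fell in one stage and rose in the other with no overlap of the plates. NUPR1, a small nuclear stress protein, measured 79.7 and 92.0 TPM and then 23.6 and 22 TPM in immortalized cells and 3.51 and 3.75 TPM and then 49.4 and 40.5 TPM in transformed cells (difference 5.34, standard error 0.76, adjusted p = 0.000515).

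CHAC1, which degrades glutathione, had a difference of 4.98, and INHBE, an activin subunit under ATF4 control, had one of 5.76. INHBE measured 7.09 and 7.18 TPM and then 1.93 and 3.07 TPM in immortalized cells and 0.208 and 0.694 TPM and then 19.5 and 18.0 TPM in transformed cells. The list holds 5 enzymes of serine and one-carbon metabolism, grouped here after their values were seen, of which PSAT1 (2.11), PHGDH (1.58) and SHMT2 (1.43) were called higher and MTHFD2 (difference 1.27, standard error 0.33, adjusted p = 0.0130) and PSPH (difference 0.11, standard error 0.19, adjusted p = 0.694) were not. The call of PSAT1 was lost with 7 of the 8 libraries left out, all but transformed plate b at 3% oxygen, that of PHGDH with 6 of the 8 libraries left out, all but immortalized plate a at atmospheric and transformed plate b at 3% oxygen, and that of CHAC1 without immortalized plate b at atmospheric, immortalized plate a at 3%, transformed plate a at atmospheric or transformed plate a at 3% oxygen. PHGDH, the first enzyme of serine synthesis, measured 159 and 185 TPM and then 168 and 159.6 TPM in immortalized cells and 129 and 130.0 TPM and then 444 and 308 TPM in transformed cells. Asparagine synthetase, ASNS, rose by 2.17 in transformed cells, but its difference of 2.22 (standard error 0.57, adjusted p = 0.0125) missed the threshold.

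ASS1, which makes argininosuccinate in the synthesis of arginine (chromosome 9 from 133320348 to 133376661, GRCh37), stood at 695 and 662 TPM in immortalized cells at atmospheric oxygen and at 228 and 211 TPM at 3% oxygen. Transformed cells held 24.9 and 24.1 TPM and then 219 and 213 TPM, so that the stages were far apart at atmospheric and overlapped at 3% oxygen. The difference was 4.74 (standard error 0.41, adjusted p = 3.83e-05), between 4.68 and 4.79 with each library left out. Around it in arginine and polyamine metabolism, arginase ARG2 (1.49) and the polyamine acetylase SAT1 (2.43) were called higher. The polyamine-making enzymes ODC1 (-2.72) and SRM (-2.43) were called lower, but the call of ODC1 was lost with each of the 8 libraries left out, with no filter on low values, with median-ratio rescaling and without the trend. ODC1, the rate-limiting enzyme of that pathway, measured 85.1 and 96.0 TPM and then 121 and 123 TPM in immortalized cells and 194 and 190.4 TPM and then 41.9 and 35.9 TPM in transformed cells.

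The chaperones of the endoplasmic reticulum went the other way from the ATF4 targets. Of 15 members, 4 were called lower, HSPA5, PDIA4, MANF and CALR, and XBP1 was called higher (1.14). The call of HSPA5 was lost with median-ratio rescaling and that of CALR with quantile normalization. HSPA5, the main chaperone of the compartment, measured 468 and 424 TPM and then 517 and 485 TPM in immortalized cells and 480.3 and 458 TPM and then 245 and 239 TPM in transformed cells (difference -1.12, standard error 0.18, adjusted p = 0.000902).

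Lysosomal genes were a broad group of moderate size. Of 32 tested, 16 were called higher and 1 lower, with a median difference of 1.14. In immortalized cells 12 members fell and 0 rose (median -0.94), and in transformed cells 4 rose and 2 fell (median 0.19). CTSK, a protease that cuts collagen, measured 1641 and 1374 TPM and then 202 and 196 TPM in immortalized cells and 4.10 and 4.27 TPM and then 7.65 and 11.2 TPM in transformed cells, a difference of 3.97 (standard error 0.54, adjusted p = 0.000387). CTSB, cathepsin B, measured 2986 and 3196 TPM and then 1194 and 1116 TPM in immortalized cells and 642 and 623 TPM and then 1143 and 1230 TPM in transformed cells (difference 2.33, standard error 0.14, adjusted p = 5.71e-06). The stages differed by far at atmospheric oxygen in both genes, and the CTSB libraries of the 2 stages overlapped at 3% oxygen while those of CTSK did not.

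CTSF (2.51), NPC2 (2.31) and NPC1 (2.05), the last pair exporters of cholesterol from the lysosome, were called higher and rose in transformed cells. CTSD (1.91), PSAP (1.68), LAMP2 (1.39) and CTSL (1.16) were called with no call of the transformed response. CTSS was called (3.87), with 2.26 and 14.9 TPM in transformed plates a and b at 3% oxygen against 2.80 and 2.41 TPM at atmospheric oxygen, so that the 2 levels overlapped. The call of CTSS was lost with 6 of the 8 libraries left out, all but transformed plate a at 3% and transformed plate b at 3% oxygen, and also with no filter, with the replicate block and with the 8 libraries alone. CTSC (-1.01) was the 1 member called lower, and its call was lost without immortalized plate a at atmospheric, immortalized plate a at 3%, transformed plate a at atmospheric, transformed plate b at atmospheric or transformed plate b at 3% oxygen, with median-ratio rescaling and with quantile normalization.

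Iron storage and aldehyde metabolism held some of the highest levels among called genes. FTH1, the ferritin heavy chain, measured 7987 and 6307 TPM and then 2071 and 2019 TPM in immortalized cells and 1912 and 1923 TPM and then 2796 and 2656 TPM in transformed cells (difference 2.30, standard error 0.24, adjusted p = 8.36e-05). FTL, the light chain, had a difference of 1.18, not called with quantile normalization, and both have many processed pseudogenes among which reads may be split. AKR1B1, aldose reductase, measured 2947 and 2033 TPM and then 567 and 525 TPM in immortalized cells and 232 and 241 TPM and then 760.0 and 1552 TPM in transformed cells, a difference of 4.36 (standard error 0.38, adjusted p = 3.99e-05). NQO1, a quinone reductase under NRF2 control, was called lower (-1.78), from 349 and 334 TPM to 139 and 106 TPM in transformed cells. Over the NRF2 targets 4 of 20 were called higher and 1 lower, with a median of 0.04, so the list did not move as one.

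Lipid genes leaned to a higher response in transformed cells. Of 23 sterol genes 4 were called higher and 0 lower (17.4% called, median 0.82), and of 21 fatty acid genes 3 and 0 (14.3%, median 0.80). Among all genes 11.9% were called and 6.1% called higher, so the fatty acid share called was near that of all genes. SCD, which introduces the double bond of oleate, measured 707 and 727 TPM and then 209.6 and 223 TPM in immortalized cells and 86.3 and 88.8 TPM and then 217 and 158 TPM in transformed cells, a difference of 2.81 (standard error 0.48, adjusted p = 0.00144). INSIG1, which retains the SREBP factors, measured 135 and 136 TPM and then 48.4 and 49.3 TPM in immortalized cells and 31.6 and 33.3 TPM and then 59.6 and 64.1 TPM in transformed cells (difference 2.38, standard error 0.24, adjusted p = 7.97e-05). Both genes fell in immortalized cells, and their transformed libraries were higher at 3% than at atmospheric oxygen without a call. FADS1 (2.17) fell in one stage and rose in the other. SREBF2 (1.92), DHCR7 (1.6), CYP51A1 (1.10) and ACSL3 (1.06) were also called higher, ACSL3 not without immortalized plate a at atmospheric or transformed plate a at 3% oxygen. Among lipid carriers CD36 (3.01) and FABP3 (2.41) were called higher and FABP5 (-2.40) lower, the last with 66.0 and 63.5 TPM and then 15.6 and 11.7 TPM in transformed cells.

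**Figure D4:**
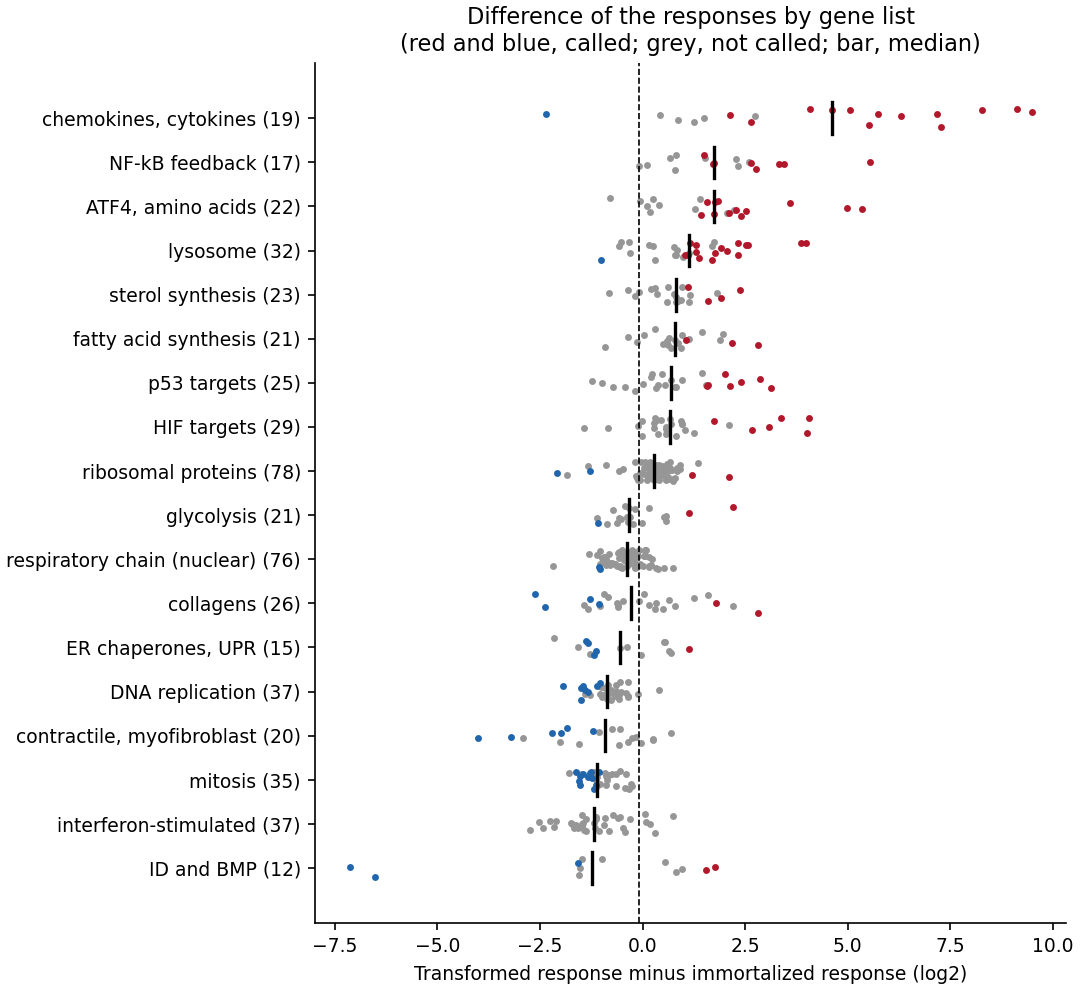
Difference of the responses (log2, horizontal axis) for the tested members of 18 gene lists, 1 point per gene, with called genes in red (higher) and blue (lower), the list median as a bar and the median of all genes, -0.08, dashed. Chemokines and cytokines reach furthest to the right with a median of 4.61, and all 35 mitotic genes lie to the left of 0.

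Cell cycle genes lay on the lower side. All 35 mitotic genes tested had a negative difference, 12 of them called, with a median of -1.12. Of 37 replication genes 36 were negative and 8 called, with a median of -0.86. In immortalized cells 6 mitotic and 6 replication genes were called up at 3% oxygen (medians 0.93 and 0.80). At an unadjusted p under 0.05 (limma) the immortalized response counted 34 mitotic and 33 replication genes, beside 4787 of all 12715 genes. In transformed cells 0 members of either list were called by limma, with 8 and 12 at an unadjusted p under 0.05 and medians of -0.09 and -0.06. The mitotic count was 18 with only the 8 libraries in the fit, 7 with quantile normalization and 7 to 13 with single libraries left out, 7 without immortalized plate a at either oxygen level or transformed plate b at either.

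CDC20, an activator of the anaphase-promoting complex, measured 93.4 and 110.2 TPM and then 207 and 197 TPM in immortalized cells and 357 and 364 TPM and then 248 and 248 TPM in transformed cells (difference -1.53, standard error 0.26, adjusted p = 0.00148). Transformed cells were above immortalized cells at both oxygen levels. ANLN, which builds the contractile ring, measured 122 and 142 TPM and then 358 and 343 TPM in immortalized cells and 308 and 303 TPM and then 329.9 and 266 TPM in transformed cells (difference -1.46, standard error 0.24, adjusted p = 0.00110). CCNA2 (-1.54), KIF20A (-1.61), HMMR (-1.53), PLK1 (-1.28) and CCNB2 (-1.18) were also called lower. The calls of KIF20A, HMMR and PLK1 were lost with 7 of the 8 libraries left out, all but transformed plate a at 3% oxygen, and those of KIF20A, PLK1 and CCNB2 also with quantile normalization. In replication the helicase factor MCM10 measured 3.75 and 5.51 TPM and then 11 and 11.4 TPM in immortalized cells and 41.2 and 37.8 TPM and then 25.2 and 22.3 TPM in transformed cells, a difference of -1.93 (standard error 0.23, adjusted p = 0.000201). E2F8, LIG1, GINS2, ORC1, RRM2, MCM5 and POLE were called lower, with differences from -1.03 to -1.50. The call of POLE was lost with each of the 8 libraries left out, that of MCM5 without immortalized plate a at 3% or transformed plate a at 3% oxygen, and both with median-ratio rescaling or quantile normalization. The tubulin TUBA1B, one of the 6 most abundant called genes, went from 1898 and 2194 TPM to 4204 and 4180 TPM in immortalized cells and from 4366 and 4484 TPM to 2972 and 2678 TPM in transformed cells (difference -1.69, standard error 0.15, adjusted p = 4.43e-05).

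Mitotic promoters often carry the letters TTTGAA, the cell cycle homology region, and they are shown for 4 called members. The letters occurred in 882 of 10278 promoter windows (8.58%), in 16 of 29 windows of the mitotic list and in 1 of 32 windows of the replication list. They were in 78 of 619 windows of genes called lower (12.6%) and in 55 of 617 of genes called higher (8.91%). The last 100 bases before the start are printed with the match in capitals (RefSeq, GRCh38.p14).
CCNB2 (chr15:59105046-59105145, plus strand): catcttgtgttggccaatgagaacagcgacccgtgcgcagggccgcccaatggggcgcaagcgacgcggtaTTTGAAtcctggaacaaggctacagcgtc
PLK1 (chr16:23678789-23678888, plus strand): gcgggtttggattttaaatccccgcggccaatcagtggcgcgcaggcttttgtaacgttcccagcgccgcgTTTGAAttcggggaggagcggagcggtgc
CDC20 (chr1:43358881-43358980, plus strand): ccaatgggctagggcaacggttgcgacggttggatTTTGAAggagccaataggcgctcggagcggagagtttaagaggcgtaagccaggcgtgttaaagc
HMMR (chr5:163460532-163460631, plus strand): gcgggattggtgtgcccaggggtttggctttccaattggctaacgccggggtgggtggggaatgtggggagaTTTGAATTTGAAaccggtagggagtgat
The match began 29 bases before the start in CCNB2 and in PLK1, 28 bases before it in HMMR, where it stood as 2 copies in a row, and 65 bases before it in CDC20.

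Some genes that p53 activates had a higher response in transformed cells, which carry Large-T. Of 25 tested, 7 were called higher and 0 lower (median 0.69), and 4 fell in immortalized cells. CCNG1 measured 159 and 148 TPM and then 82.5 and 82.9 TPM in immortalized cells and 73.5 and 74.3 TPM and then 158 and 166 TPM in transformed cells (difference 2.01, standard error 0.13, adjusted p = 5.71e-06). GDF15 (3.13), BBC3 (2.85), SESN2 (2.39), TP53INP1 (2.14), ZMAT3 (1.6) and TNFRSF10B (1.57) were called, and SESN2 also stands in the ATF4 list. The call of GDF15 was lost with each of the 8 libraries left out, and that of BBC3 without immortalized plate b at atmospheric, immortalized plate a at 3%, immortalized plate b at 3%, transformed plate b at atmospheric or transformed plate b at 3% oxygen. CDKN1A, the cell cycle inhibitor p21, had a difference of 1.56 (standard error 0.48, adjusted p = 0.0290) and was not called. Of 16 genes of G1 control, CDKN1C (2.29) and the RB relative RBL2 (1.21) were called higher, a share close to the 11.9% of all genes called, and the call of RBL2 was lost with each of the 8 libraries left out.

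Inhibitor of DNA binding genes gave the lowest differences of all called genes. ID3 (chromosome 1 from 23884417 to 23885992, GRCh37), a target of BMP signals that blocks differentiation factors, measured 18.0 and 31.8 TPM and then 161 and 150.2 TPM in immortalized cells. In transformed cells it measured 186 and 168 TPM and then 7.46 and 7.63 TPM, and the difference was -7.14 (standard error 0.54, adjusted p = 1.64e-05). ID1 (chromosome 20 from 30193086 to 30194318), its close relative, measured 6.15 and 13.4 TPM and then 59.9 and 51.9 TPM in immortalized cells and 53.9 and 46 TPM and then 2.62 and 2.74 TPM in transformed cells (difference -6.53, standard error 0.57, adjusted p = 3.99e-05). Both genes rose in immortalized and fell in transformed cells with no overlap of the plates, and immortalized cells at 3% stood near transformed cells at atmospheric oxygen. ID2 rose by 2.05 in immortalized cells and had a difference of -1.58 (standard error 0.22, adjusted p = 0.000492). Of the 12 ID and BMP genes 3 were called lower and 2 higher, BMP2 (1.56) and HEY1 (1.76), both under 3 TPM in every library. The call of HEY1 was lost with 7 of the 8 libraries left out, all but transformed plate a at atmospheric oxygen, and that of BMP2 without immortalized plate a at atmospheric, immortalized plate b at 3% or transformed plate a at atmospheric oxygen and with 0.1 TPM added. ATOH8, a basic helix-loop-helix gene among the 12 largest negative differences, had a difference of -4.47.

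Contractile and matrix genes of the myofibroblast state lay on the lower side. Of 20 tested, 6 were called lower and 0 higher, with a median of -0.90, and the fit of the 8 libraries alone called 10 lower. TAGLN, an actin-binding protein of smooth muscle, measured 611 and 765 TPM and then 1350 and 1418 TPM in immortalized cells and 1750 and 1630 TPM and then 204 and 222 TPM in transformed cells (difference -4.0, standard error 0.62, adjusted p = 0.000819). MYL9, a myosin light chain, measured 463 and 551 TPM and then 604 and 600.4 TPM in immortalized cells and 695 and 697 TPM and then 224 and 195 TPM in transformed cells (difference -1.98, standard error 0.23, adjusted p = 0.000142). In both genes the 2 transformed libraries at 3% oxygen were the lowest of the 8.

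ACTG2, the enteric smooth muscle actin, measured 37.1 and 38.8 TPM and then 73.4 and 73.7 TPM in immortalized cells and 168 and 171 TPM and then 9.82 and 11 TPM in transformed cells, a difference of -4.91 (standard error 0.26, adjusted p = 3.79e-06). ACTA2, the classical marker of myofibroblasts, was not called (difference -0.55, standard error 0.54, adjusted p = 0.469). FN1 (-2.21), TGFBI (-1.85) and CNN1 (-1.20) rose in immortalized cells and were called lower for the difference. The call of CNN1 was lost with each of the 8 libraries left out, with median-ratio rescaling and with quantile normalization, and that of FN1 without immortalized plate a at atmospheric, immortalized plate a at 3%, transformed plate b at atmospheric or transformed plate b at 3% oxygen. POSTN, a matrix protein, was listed at 0 in both immortalized libraries at atmospheric oxygen and measured 5.43 and 5.28 TPM and then 0.396 and 0.0907 TPM in transformed cells.

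Matrix genes split. Of 26 collagens, 4 were called lower, COL1A1 (-2.62), COL4A1 (-2.38), COL4A2 (-1.29) and COL5A2 (-1.06), and 2 higher, COL8A2 (2.81) and COL14A1 (1.79). The calls of COL4A2 and COL5A2 were lost with some single libraries left out. That of COL5A2 was also lost with median-ratio rescaling and with quantile normalization, and that of COL14A1 with 0.1 TPM added. The lower count was 1 without transformed plate b at 3% oxygen and 2 without either immortalized plate at 3%, either transformed plate at atmospheric or immortalized plate a at atmospheric oxygen. COL1A1, the main chain of type I collagen, measured 775 and 1294 TPM and then 1525 and 1444 TPM in immortalized cells and 1045 and 883 TPM and then 266 and 200.3 TPM in transformed cells (difference -2.62, standard error 0.61, adjusted p = 0.00787). The call of COL1A1 was lost with each of the 8 libraries left out, with no filter, with the replicate block and without the trend. Among enzymes that modify collagen, LOXL4 (2.04), P3H2 (1.68) and LOXL1 (1.11) were called higher and LOXL2 (-1.23) lower. The call of LOXL1 was lost with each of the 8 libraries left out, with no filter, with the replicate block and without the trend, and that of LOXL2 without immortalized plate a at atmospheric, immortalized plate a at 3%, transformed plate a at atmospheric or transformed plate b at 3% oxygen and with quantile normalization. PLOD2 rose in both stages, by 1.96 and 1.11, with no call for the difference (difference -0.84, standard error 0.17, adjusted p = 0.00311).

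Of 15 metalloproteinases, 4 were called higher and 1 lower. MMP3, stromelysin 1, measured 1972 and 1255 TPM and then 50 and 56.5 TPM in immortalized cells and 12.3 and 11.2 TPM and then 5.73 and 13.8 TPM in transformed cells, where its oxygen levels overlapped. Its difference of 4.50 (standard error 0.47, adjusted p = 9.17e-05) rested on the response of -4.88 in immortalized cells. MMP1 (2.29), MMP2 (1.91) and MMP14 (1.6) were also called higher and MMP16 (-1.79) lower. The plasminogen activator PLAU (1.96) and the serpin SERPINE2 (2.83) were called higher, and the receptor PLAUR was not (difference -0.54, standard error 0.20, adjusted p = 0.0585). The calls of MMP1 and SERPINE2 were lost with 6 of the 8 libraries left out, all but immortalized plate b at atmospheric and transformed plate a at 3% oxygen.

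Single genes outside these lists stood among the 24 largest differences. IGFBP3, which binds insulin-like growth factors, measured 128 and 122 TPM and then 878 and 909 TPM in immortalized cells and 68.4 and 68.0 TPM and then 16.8 and 15.4 TPM in transformed cells (difference -4.88, standard error 0.45, adjusted p = 5.19e-05). TXNIP, which binds thioredoxin and restrains glucose uptake, measured 49.8 and 50.8 TPM and then 98.6 and 102 TPM in immortalized cells and 28.7 and 25.5 TPM and then 1.78 and 1.35 TPM in transformed cells (difference -4.73, standard error 0.24, adjusted p = 3.79e-06). HSD11B1, which activates cortisol, fell from 34.5 and 24.2 TPM to 0.635 and 0.373 TPM in immortalized cells, was listed at 0 in both transformed libraries at atmospheric oxygen and measured 0.601 and 5.14 TPM at 3% oxygen. C5orf46 rose from 1.10 and 1.39 TPM to 52.8 and 59.0 TPM in immortalized cells and was listed at 0 in both transformed libraries at atmospheric oxygen. For POSTN, CCL20, HSD11B1, CSF3, CSF2 and C5orf46 the size of the fitted difference depends on the 0.5 TPM added before the logarithm, and C5orf46 was not called with 0.1 TPM added. KRT81 (-6.02), CCDC85A (-4.07), DHRS2 (-3.84) and CORO1A (-3.68) were the other large negative differences, the call of CORO1A was lost with 7 of the 8 libraries left out, all but immortalized plate b at atmospheric oxygen, and KRT81 has near-identical relatives with which reads may be shared.

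The ribosomal proteins had a median difference of 0.28 over 78 genes, with 2 called in each direction, RPS27 and RPL13A higher and RPS10 and RPL26 lower, all genes with pseudogene copies, and the call of RPL26 was lost without immortalized plate a at atmospheric, immortalized plate b at atmospheric, immortalized plate b at 3%, transformed plate b at atmospheric or transformed plate b at 3% oxygen, with median-ratio rescaling and with quantile normalization. TPT1 (1.89) and TMSB4X (1.74), a translationally controlled protein and an actin-binding thymosin, were among the 6 most abundant called genes. Of 15 immediate early genes 1 was called higher and 2 lower, of 17 antioxidant enzymes 2 and 0, and of 18 angiogenic ligands 2 and 0, beside 11.9% called among all genes. EEF1A1, the elongation factor that ranks first in level among called genes, had a difference of 1.02 that was called in the fit reported here. The call was lost with no filter on low values and with each library left out but transformed plate b at 3% oxygen. The difference lay at 0.00 after quantile normalization, which sets equal ranks to equal values and can hide a change near the top rank.

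Of 43 tested genes that the study names in its text, 20 were called higher and 2 lower. The study chose them on these samples, so their count is no independent evidence of direction.

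Genes of other types than protein-coding were fitted together with the protein-coding ones, and 42 of 1156 tested were called (3.63%), 21 in each direction, of which 25 were pseudogenes and 17 long non-coding RNAs. LINC01583 measured at most 0.376 TPM in the other 6 libraries compared and 5.11 and 4.60 TPM in transformed plates a and b at 3% oxygen. DLEU2L measured 6.21 and 6.68 TPM and then 13.7 and 14.6 TPM in immortalized cells and 23.6 and 23.3 TPM and then 5.79 and 5.21 TPM in transformed cells. THBS1-IT1, within the thrombospondin 1 gene, was called lower (-2.06), while THBS1 itself was not (difference -2.02, standard error 0.77, adjusted p = 0.0682).

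The same contrast between the metastasizing stage, which carries hTERT, Large-T and Ras-G12V, and the primary stage, which carries none of them, uses the other 8 libraries. It called 799 genes (6.28% of those tested), 263 higher and 536 lower, and the 2 metastasizing libraries at 3% oxygen differed more than 2-fold in 11% of genes, the most of any group. Of the 775 genes called higher in transformed minus immortalized cells, 60.4% were positive here against 36.9% of all genes tested, 78 (10.1%) were called higher against 2.07% of all genes, and 34 (4.39%) were called lower against 4.22%. Of the 741 genes called lower, 78.9% were negative against 63.1% of all genes, 98 (13.2%) were called lower against 4.22%, and 12 (1.62%) were called higher against 2.07%.

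Shared direction was uneven across the named genes. ASS1 (3.22), IL1B (6.10), CTSK (3.18), TRIB3 (2.30) and ICAM1 (2.41) were called higher in both pairs of stages, and TXNIP (-1.82), MCM10 (-1.28) and COL4A1 (-1.66) were called lower in both. CXCL8 (0.18), SOD2 (-0.02) and NUPR1 (-0.15) lay near 0 in metastasizing minus primary cells. The difference between the 2 pairs of stages, a test chosen after the data were seen, was called for 795 genes (6.25%). It was 8.93 for CXCL8, 5.56 for SOD2 and -8.11 for ID3. These genes were picked by their transformed minus immortalized difference, which is a part of it, so large values are built in. In metastasizing minus primary cells HIF targets lay on the lower side, with 13 of 29 called lower and 0 higher (median -1.04). So did sterol genes, with 14 of 23 called lower (median -1.51).

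**Figure D5:**
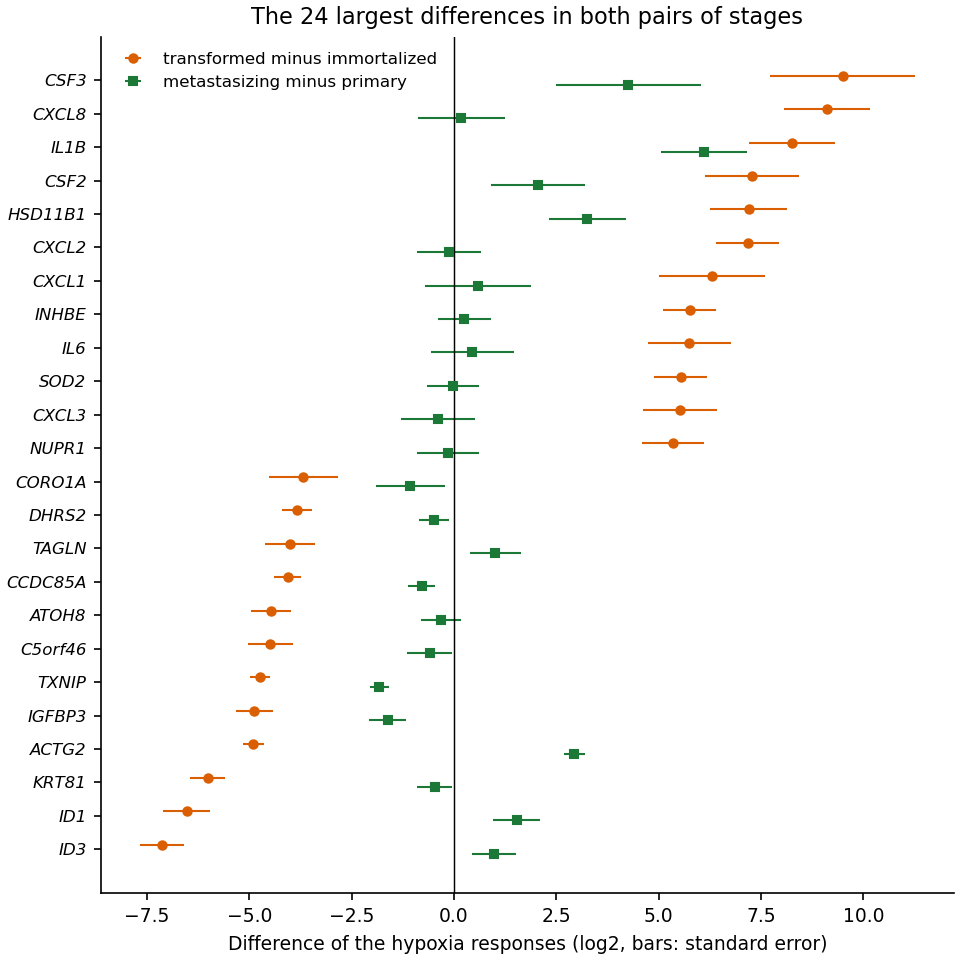
Difference of the hypoxia responses (log2, horizontal axis, bars for standard errors) of the 24 genes with the largest differences, in transformed minus immortalized cells (orange circles) and in metastasizing minus primary cells (green squares). The green squares of CXCL8, CXCL2, SOD2 and NUPR1 lie near 0, that of IL1B lies at 6.10, and ACTG2 is called lower in orange and higher in green.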

How the data were processed

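RNA was sequenced from duplicate plates with a stranded poly-A kit on a HiSeq2500. Per the labels the authors quantified transcripts with kallisto 0.42.1 against GRCh37 and deposited TPM for each transcript. By the methods of the study, the authors summed TPM by gene and the authors tested differential expression with tximport and edgeR. TPM keep no depth, so a count test was not repeated and the precision that depth gives is unknown. Of 180253 transcripts 151453 were matched to GENCODE 44 on GRCh37, holding 88.2% to 90.1% of the TPM, and summed by gene.

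Groups came from the sample titles. One linear model of log2(TPM + 0.5) with 8 group coefficients was fitted to all 16 libraries (limma 3.58.1 in R 4.3.3, moderated with a trend), and Benjamini-Hochberg adjusted p under 0.01 with a difference beyond 1 made a call. Tables and figures were made with Python 3.11.15, pandas 2.3.3, numpy 2.4.6 and matplotlib 3.10.9. The procedure was tested on simulated data. Alternatives were other pseudocounts (1 and 0.1), no filter or a minimum of 5 TPM, median-ratio rescaling, quantile normalization, the 8 libraries alone, a replicate block, no trend, array weights, an adjusted p under 0.05, all annotated genes, and each library left out.

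The comparison, the gene lists and the genes of interest were chosen with earlier results of these data known. Named genes are the 12 largest differences in each direction that stayed beyond 1 with each library left out, up to 5 called members per list, genes the study names, TERT, and the 6 most abundant called genes. Further list members were named where a sentence needs them, after their values were seen. Promoters are from RefSeq on GRCh38.p14 and gene positions from GENCODE on GRCh37.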

Additional observations from a re-analysis of the deposited data

Results flagged for a closer look

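The 24 genes with the largest differences whose size stayed beyond 1 with each library left out responded to 3% oxygen differently in the 2 stages, by the interaction term of the limma fit. On the log2 scale, the 12 with a higher transformed response were CSF3 (9.49), CXCL8 (9.11), IL1B (8.26), CSF2 (7.28), HSD11B1 (7.2), CXCL2 (7.17), CXCL1 (6.30), INHBE (5.76), IL6 (5.75), SOD2 (5.54), CXCL3 (5.53) and NUPR1 (5.34). The 12 with a lower one were ID3 (-7.14), ID1 (-6.53), KRT81 (-6.02), ACTG2 (-4.91), IGFBP3 (-4.88), TXNIP (-4.73), C5orf46 (-4.49), ATOH8 (-4.47), CCDC85A (-4.07), TAGLN (-4.0), DHRS2 (-3.84) and CORO1A (-3.68). For 16 of the 24 the difference between the 2 pairs of stages was itself called by limma at the same thresholds, beside 6.25% of all genes tested. That test was chosen after the data were seen and reuses the values that picked the 24. A high count is therefore built in, and among all called genes 36.3% of the higher and 20.4% of the lower passed it. In metastasizing minus primary cells 2 of the 24 were called in the same direction, IL1B and TXNIP, and 1 in the opposite direction, ACTG2.

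The 2 transformed plates at 3% oxygen stand apart in interferon-stimulated genes and in cytokines, as the values given for each plate show. The part of this split in the differences of these genes is seen only by leaving out each plate, since the group holds no further library.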

How the results depend on the processing

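Counts of genes called moved within 1.5 times the reported ones under most alternatives, with the following exceptions. A replicate block within each stage, added after the data were seen, gave 455 higher and 432 lower calls in place of 775 and 741, 314 in place of 581 for the immortalized response, 598 in place of 914 for the transformed response and 193 in place of 799 for metastasizing minus primary cells. Across genes, the same-letter libraries of a stage did not deviate together (correlation -0.101 in immortalized and -0.0838 in transformed cells). Whether plates of the same letter shared handling was not tested, and the labels do not say. A single replicate block over all libraries gave 719 and 696. With each of the 8 libraries left out, 495 to 668 genes were called higher and 482 to 776 lower, 265 to 596 in immortalized and 499 to 852 in transformed cells, where the group that lost a library is assumed to vary like the others. The higher count was lowest without immortalized plate b at 3% (495) and transformed plate b at atmospheric oxygen (503), and the lower count moved as far without either immortalized plate at 3% (482 and 491) or either transformed plate at atmospheric oxygen (482 and 489). The immortalized count was 265 to 331 without any of its own libraries, and the transformed count 538 and 499 without its plates a and b at atmospheric oxygen. For metastasizing minus primary cells, array weights gave 435 genes and an adjusted p under 0.05 gave 1452. Array weights gave the 2 metastasizing libraries at 3% oxygen a weight of 0.237, and without both, a setting added after the data were seen, 986 genes were called higher and 900 lower.

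Of 134 called genes picked by the rule for named genes, 87 were called under all 22 alternatives in which they could be tested. Further list members named in the text are not among the 134. Several of them, such as CCL20, CXCL5, NFKBIE, PSAT1 and POLE, lost their calls under some alternatives. The share therefore holds for the 134 alone. No call turned to the opposite direction, though the sign of an uncalled difference near 0 can turn. The block within each stage lost 35 calls, leaving out single libraries 13 to 27 (27 without immortalized plate a at atmospheric oxygen), quantile normalization 11, no filter on low values 10, median-ratio rescaling 7, and each other setting at most 6. TPM hold no counts, so the depth behind a value is unknown, and a value listed at 0 has no known upper limit. With 2 libraries a group, an exact permutation test cannot go below p = 0.333, and the p-values rest on the model fitted over all genes.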

Other observations

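Most named genes were carried by 1 transcript. In 135 of 156 genes a single transcript held over 50% of the TPM of the 4 groups together, such as 97.9% in CXCL8 (ENST00000307407). In IL6 and SOD2 the leading transcript held 51.8% and 48.5%. The leading transcript of DHRS2 (ENST00000250383) held 85.4% of the gene in transformed cells at atmospheric oxygen and was listed at 0 at 3% oxygen, and that of ATOH8 (ENST00000489682, 57.5%) has no defined coding sequence in the annotation.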
